A study of Mus musculus with 6 samples.

Results

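The 10 amino acid and peptide transporter genes described here were Slc15a1, Slc6a19, Slc6a20a, Slc7a7, Slc7a8, Slc7a9, Slc3a1, Slc3a2, Slc1a1 and Slc1a5. They were chosen by name from the 46078 genes of the count table, and all 10 were found and passed the filter on low counts. RNA had been sequenced from epithelial cells (EpCam+, CD45-) sorted from the small intestine of untreated C57BL/6JRj mice. One group was 3 young mice of 2 to 3 months and the other 3 aged mice of 20 to 22 months, with 1 library per mouse by the series design. The design places the tissue in the proximal small intestine, names no sex or batch, and gives no pairing of young with aged mice. Replicate numbers below follow the order of the records and are names only.

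Dietary protein reaches the enterocyte as di- and tripeptides and as free amino acids. Peptides enter through a proton-coupled carrier in the brush border, and most amino acids enter through sodium-coupled carriers or through exchangers. Some exchangers are heterodimers, in which a light chain of the Slc7 family forms the pore and a heavy chain of the Slc3 family brings it to the membrane. One set of heterodimers works at the brush border and another releases amino acids towards the blood.

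None of the 10 transporters differed between aged and young mice at an edgeR adjusted p below 0.05. DESeq2 and limma-voom also called 0 of 10, and 0 of 10 had an unadjusted edgeR p below 0.05. Over all 14923 genes tested, 1.41% were called in either direction (0.623% higher and 0.784% lower in aged mice) and 9.23% had an unadjusted p below 0.05. Log2 fold changes of the transporters (aged minus young) ran from -0.34 for Slc6a20a to 0.10 for Slc1a5, with 5 above and 5 below 0. Their median was -0.01, beside 0.01 over all genes tested, of which 51.8% were above 0. In 2 of 10 genes the groups did not overlap, lower in aged mice for Slc3a1 and higher for Slc1a5, beside 13.8% of all genes tested (6.30% higher and 7.49% lower in aged mice).

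Libraries held 41479573 to 58989166 counts. Of 8 epithelial markers all were tested and none was called, and 5 had log2 fold changes below 0. Epcam, the marker of the sort, stood at 1656 ± 18.3 CPM in young mice and 1510.4 ± 11.3 CPM in aged mice (CPM is counts scaled to a common library total with TMM factors; SD, n = 3 per group throughout) and was lower in every aged library (log2 fold change -0.13, edgeR adjusted p = 0.653). Vil1 stood at 1145 ± 10.7 CPM in the young and 1151 ± 75.8 CPM in the aged libraries. The 12 leukocyte markers summed to between 1.18 and 1.81 CPM in the young and between 1.93 and 2.07 CPM in the aged libraries, with Ptprc, which encodes CD45, at 0.235 ± 0.0611 and 0.230 ± 0.0403 CPM and S100a8 at 0 in all 6. The 9 fibroblast and smooth muscle markers summed to at most 0.696 CPM in any library and the 6 endothelial markers to at most 6.67 CPM, and Lum, Cdh5 and Kdr were at 0 in all 6 libraries. Sums of goblet and Paneth cell markers were lower in every aged than in every young library: the 8 goblet markers summed to between 17763 and 27023 CPM in the young and between 15019 and 16665 CPM in the aged libraries, and the 7 Paneth markers to between 8448 and 15596 CPM and between 6372 and 6858 CPM. In each of these lists 1 gene was called, and their part in the transporter values was not tested. The sums of the 8 enteroendocrine markers (2140.4 to 2813 and 2463 to 2732 CPM) and of the 6 tuft cell markers (55.8 to 59.4 and 38.8 to 60.6 CPM) overlapped between the ages. Of the enteroendocrine markers 2 were called lower. Of 7 enteric neuron and glia markers 3 were tested and of the 6 tuft cell markers 5, and none was called. The neuron and glia markers summed to between 10.97 and 11.89 CPM in the young and between 8.41 and 9.29 CPM in the aged libraries. All 5 tested tuft cell markers had log2 fold changes below 0. In such bulk samples fewer cells of a type and less RNA per cell cannot be told apart. On the second principal component (22.4% of the variance) young replicate 2 stood at -34.8 and aged replicate 3 at 21.8. The other 4 libraries lay between -4.39 and 12.2. On the first component (45.6%) young replicate 2 (-11.1) and aged replicate 3 (9.21) were also the libraries nearest the other age. The other young libraries stood there at -27.8 and -31.3 and the other aged ones at 29.3 and 31.7. Results are also given without young replicate 2 and aged replicate 3, which keeps the libraries furthest apart by age on the first component.

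**Figure D1:**
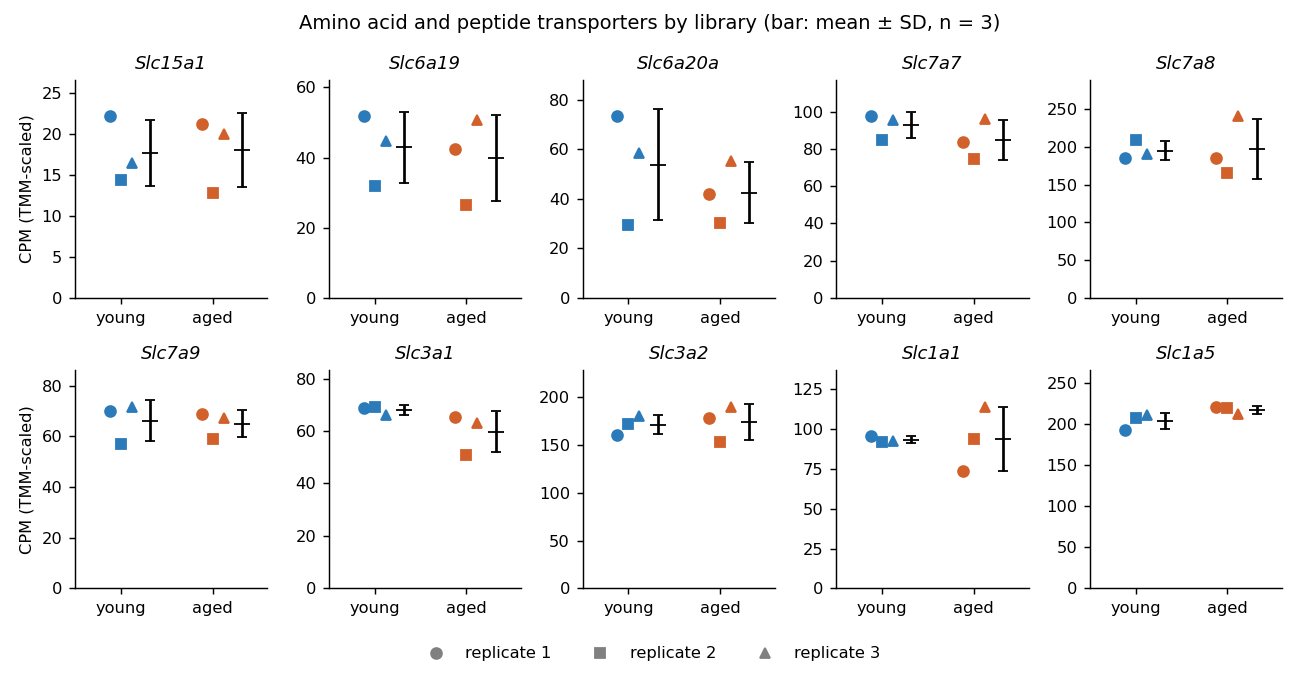
Each panel plots the level of 1 transporter in CPM on an axis from 0, with young libraries in blue and aged libraries in orange. Marker shapes give the replicate and black bars the mean ± SD of 3 libraries. The age groups overlap in 8 of 10 panels. Aged replicate 2 is the lowest of the 6 libraries in 6 of all 10 panels.

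Slc15a1 encodes the brush border carrier PEPT1, which takes up di- and tripeptides together with protons. The gene (ENSMUSG00000025557, chromosome 14, 121459621 to 121505252, GRCm38) stood at 22.1, 14.3 and 16.4 CPM in young replicates 1 to 3 and at 21.2, 12.8 and 19.9 CPM in aged replicates 1 to 3. The groups overlapped nearly completely, and replicate 2 was the low library in each. Its log2 fold change was 0.03 ± 0.21 (SE, edgeR adjusted p = 0.986). The 95% confidence interval of the fold ran from 0.728 to 1.44.

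Slc6a19 encodes B0AT1, the main sodium-coupled carrier of neutral amino acids in the brush border. Its level was 51.8, 31.96 and 44.8 CPM in the young libraries and 42.4, 26.5 and 50.6 CPM in the aged ones (ENSMUSG00000021565, chromosome 13, 73679745 to 73704865). High and low libraries occurred in both groups, with aged replicate 2 the lowest. Its log2 fold change was -0.10 ± 0.26 (edgeR adjusted p = 0.964), and the interval of the fold was 0.611 to 1.42.

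Slc6a20a encodes the mouse carrier of proline and other imino acids. It showed the widest spread of the 10 genes in young mice, with 73.4, 29.5 and 58.6 CPM, and stood at 42.0, 30.4 and 55.3 CPM in aged mice (ENSMUSG00000036814, chromosome 9, 123634770 to 123678885). The lowest young and the lowest aged library differed by less than 1 CPM, and the 2 highest values were both young. The log2 fold change of -0.34 ± 0.37 had the largest size among the transporters and an edgeR adjusted p of 0.884. Leaving out young replicate 1 brought it to -0.05 and young replicate 2 to -0.64. Leaving out aged replicate 2 gave -0.15 and aged replicate 3 gave -0.57. The interval of the fold, from 0.427 to 1.47, was the widest of the 10. The paralogue Slc6a20b was too low to test, at 0.101 ± 0.0897 CPM in the young and 0.0889 ± 0.0693 CPM in the aged libraries.

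Slc3a1 and Slc7a9 encode the heavy chain rBAT and the light chain b0,+AT, which together exchange cystine and basic amino acids at the brush border. Slc3a1 (ENSMUSG00000024131, chromosome 17, 85028376 to 85064236) stood at 68.8, 69.4 and 66.0 CPM in young mice and at 65.5, 50.8 and 63.0 CPM in aged mice. All 3 aged libraries lay below the 3 young ones, with aged replicate 1 just under young replicate 3. The log2 fold change was -0.19 ± 0.10 (edgeR unadjusted p = 0.0907, adjusted p = 0.664), and the interval of the fold was 0.753 to 1.03. Of the 2271 exon bases of Slc3a1, 601 (26.5%) are shared with Prepl on the opposite strand, so its counts are uncertain where strand was not used in counting. Prepl held 16806 counts over the 6 libraries and Slc3a1 18827.

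Slc7a9 (ENSMUSG00000030492, chromosome 7, 35448796 to 35466036) was at 69.9, 57.0 and 71.8 CPM in the young and 68.9, 58.8 and 67.3 CPM in the aged libraries. The groups overlapped, with replicate 2 lowest in each. Its log2 fold change was -0.03 ± 0.10 (edgeR adjusted p = 0.9748), with a fold interval of 0.834 to 1.16.

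Slc3a2 encodes the heavy chain 4F2hc (CD98), which pairs with several light chains at the basolateral membrane. It stood at 161, 172 and 180.1 CPM in the young and 178, 153 and 190.2 CPM in the aged libraries (ENSMUSG00000010095, chromosome 19, 8706882 to 8723369). The lowest and the highest of the 6 values were both aged. The log2 fold change was 0.02 ± 0.09 (edgeR adjusted p = 0.976), and the fold interval of 0.879 to 1.17 was among the narrowest of the 10.

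Its light chain Slc7a7 encodes y+LAT1, which exports basic amino acids. The values were 97.6, 84.8 and 95.8 CPM in the young and 83.6, 74.6 and 96.3 CPM in aged mice (ENSMUSG00000000958, chromosome 14, 54369442 to 54417780). Aged replicates 1 and 2 lay below all young ones and aged replicate 3 lay among them. This gave a log2 fold change of -0.13 ± 0.10 (edgeR adjusted p = 0.825, fold interval 0.779 to 1.08). Oxa1l, a mitochondrial insertase gene on the opposite strand, shares 232 exon bases (6.998%) with Slc7a7 and held 40352 counts against 26053.

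The light chain Slc7a8 encodes LAT2, an exchanger of neutral amino acids. It stood at 185, 209 and 190.4 CPM in the young and at 186, 165 and 241 CPM in the aged libraries (ENSMUSG00000022180, chromosome 14, 54722209 to 54781946). The young values lay inside the range of the aged ones. The log2 fold change was 0.02 ± 0.13 (edgeR adjusted p = 0.989, fold interval 0.826 to 1.24).

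Slc1a1 encodes EAAT3, a sodium-coupled glutamate and aspartate carrier of the brush border. It was nearly constant among young mice, at 95.7, 92.0 and 92.4 CPM, and ranged from 73.9 over 93.8 to 114 CPM in aged replicates 1 to 3 (ENSMUSG00000024935, chromosome 19, 28835049 to 28913960). The aged libraries thus lay below, among and above the young ones. Its log2 fold change was 0.01 ± 0.14 (edgeR adjusted p = 0.995, fold interval 0.812 to 1.25). Of its exon bases 31.9% are shared with 4430402I18Rik on the opposite strand, which held 446 counts against 27680.

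Slc1a5 encodes ASCT2, a sodium-coupled exchanger of glutamine and other small neutral amino acids. The young libraries held 193, 207 and 211 CPM and the aged ones 221, 219 and 212 CPM (ENSMUSG00000001918, chromosome 7, 16781340 to 16798274). Every aged value was above every young one, and the closest pair, young replicate 3 and aged replicate 3, differed by about 1 CPM. The log2 fold change was 0.10 ± 0.07 (edgeR unadjusted p = 0.187, adjusted p = 0.799). Its fold interval, 0.962 to 1.19, was the narrowest of the 10.

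**Figure D2:**
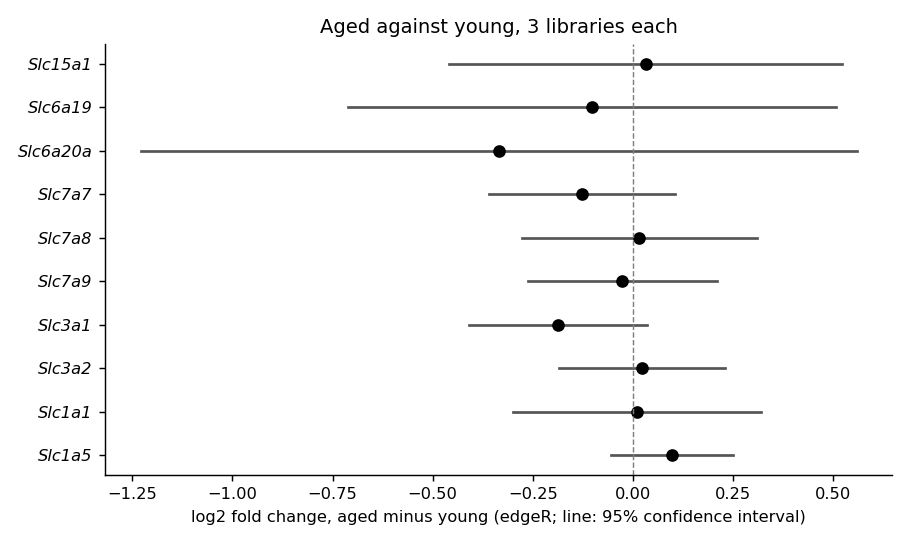
Points give the edgeR log2 fold change of aged against young libraries for each transporter and lines its 95% confidence interval. Every interval includes 0, and the widest belongs to Slc6a20a.

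Levels were compared between genes per kilobase of exon (TMM-scaled CPM divided by the length of the merged exons, mean ± SD over the 6 libraries). Slc1a5 (50.5 ± 2.46) and Slc3a2 (48.8 ± 3.87) were highest and could not be ordered, since Slc1a5 was above Slc3a2 in only 4 of 6 libraries. Slc7a8 followed at 39.2 ± 5.19 and was below Slc3a2 in all 6 libraries, although their ranges overlapped. A gap separated these from the next 3: the lowest Slc7a8 value, 33.0, exceeded the highest Slc3a1 value, 30.5.

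Slc3a1 (28.1 ± 3.00), Slc7a7 (26.8 ± 2.79) and Slc7a9 (24.5 ± 2.31 CPM per kb) formed a middle group with overlapping ranges. The lowest Slc7a9 value, 21.3, was again above the highest of the next gene, Slc6a20a, at 17.98. Slc6a20a (11.8 ± 4.24) and Slc1a1 (11.3 ± 1.55) exchanged places between libraries, with Slc6a20a higher in 3 of 6. Slc6a19 (8.26 ± 2.03) lay below Slc1a1 in all 6 libraries, and Slc15a1 was lowest at 3.65 ± 0.785, its highest value of 4.53 being under the lowest Slc6a19 value of 5.30. Thus the genes of the peptide carrier and of the main neutral amino acid carrier of the brush border were the 2 least abundant per length, and the heavy chain of the basolateral exchangers and ASCT2 were the most abundant. Lengths are those of all annotated exons, so a gene whose shorter transcripts dominate has its level understated.

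**Figure D3:**
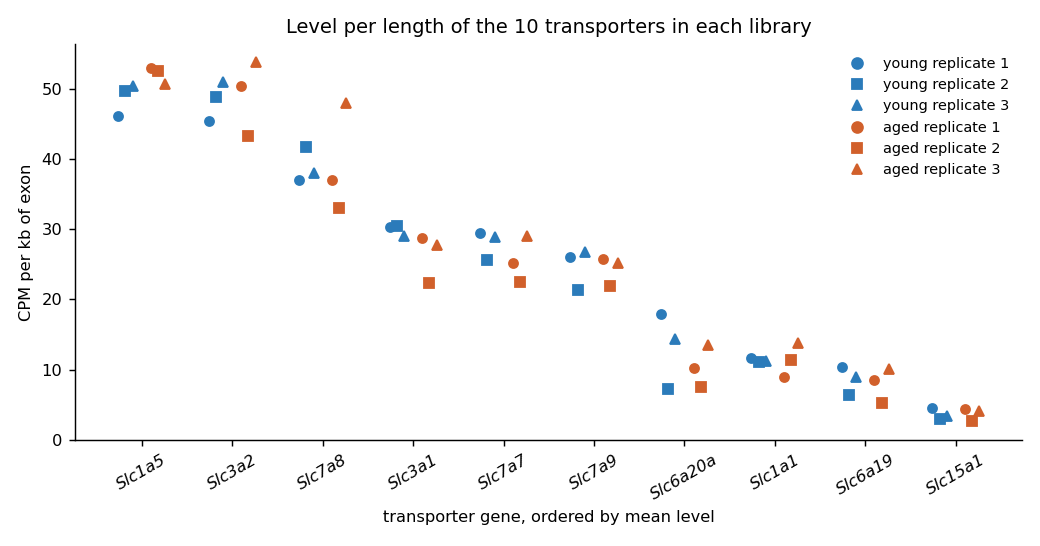
The 10 transporters are ordered by their mean level over 6 libraries, in CPM per kilobase of exon on an axis from 0, with 1 point per library. Slc1a5 and Slc3a2 lie between 43.3 and 53.9, and Slc15a1 between 2.63 and 4.53.

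Light chains were compared with their heavy chains as ratios within a library, where the scaling factor cancels. The exact permutation test of 3 against 3 libraries cannot go below p = 0.1, and p-values were adjusted over the 4 ratios computed. At the brush border, Slc7a9 stood to Slc3a1 as 0.863, 0.697 and 0.923 in the young and 0.893, 0.982 and 0.906 in aged mice (counts per kb). The light chain was below the heavy chain in all 6 libraries, and young replicate 2 was the low value. The log2 ratio was 0.17 higher in aged mice (exact two-sided permutation p = 0.3, adjusted over the 4 ratios 0.4), and 0.05 higher without young replicate 2.

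At the basolateral side, the ratio of Slc7a7 to Slc3a2 was 0.647, 0.524 and 0.566 in the young and 0.4996, 0.5195 and 0.539 in the aged libraries. The groups overlapped, and the log2 difference was -0.15 (exact permutation p = 0.2, adjusted 0.4), or -0.07 without young replicate 1. Slc7a8 to Slc3a2 gave 0.814, 0.855 and 0.745 in the young and 0.734, 0.762 and 0.892 in the aged libraries, a log2 difference of -0.02 (exact permutation p = 0.9, adjusted 0.9). Other light chains share this heavy chain: Slc7a5 (LAT1) averaged 14.6 and Slc7a6 (y+LAT2) 5.16 CPM per kb over the 6 libraries, Slc7a11 (xCT) averaged 0.0236 CPM per kb, and Slc7a10 had 0 counts in all 6. The 6 light chains together amounted to between 1.64 and 1.83 times Slc3a2 in each library.

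Collectrin, encoded by Cltrn, brings B0AT1 to the membrane in the kidney. Cltrn was scarce, at 0.773, 0.778 and 1.18 CPM in the young and 0.232, 0.175 and 0.392 CPM in the aged libraries. Its log2 fold change was -1.73 ± 0.37, just outside the threshold (edgeR adjusted p = 0.0645). DESeq2 called it lower (adjusted p = 0.0129), as did edgeR without a filter (0.00807) and without aged replicate 3 (0.0417), and over all alternatives its adjusted p ran from 0.00807 to 0.277.

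**Figure D4:**
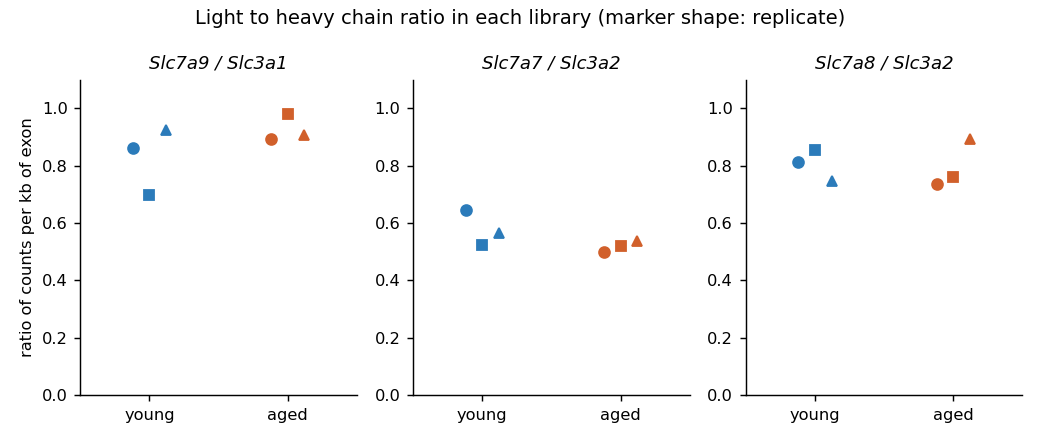
Ratios of counts per kilobase of exon between a light chain and its heavy chain are plotted for each library, on an axis from 0. The 3 panels show Slc7a9 over Slc3a1, Slc7a7 over Slc3a2 and Slc7a8 over Slc3a2, and the age groups overlap in each.

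Mice of the same age differed most in Slc6a20a, Slc6a19 and Slc15a1. Slc6a20a varied 2.49-fold between the highest and the lowest young library and 1.82-fold among aged ones. The corresponding values were 1.62 and 1.91 for Slc6a19 and 1.54 and 1.65 for Slc15a1. In these 3 brush border carriers replicate 2 was the lowest library in both groups, and young replicate 1 was the highest of all 6. The basolateral light chain Slc7a7 had the same high and low libraries over a smaller range (1.15-fold among young and 1.29-fold among aged mice). Slc1a5 was the steadiest among aged mice, with a range of 1.04-fold, and Slc1a1 among young mice, also with 1.04-fold.

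The coefficient of variation of the 10 transporters had a median of 6.95% in young mice (2.17 to 41.5%) and 16.5% in aged mice (2.30 to 30.8%). Over the 8204 tested genes at least as abundant as the least abundant transporter, the medians were 7.14% and 6.43%. In 7 of the 10 the value was higher in aged mice, with the widest gap in Slc1a1 (2.17 and 21.5%). In Slc6a20a (41.5 and 29.3%), Slc7a9 (12.2 and 8.35%) and Slc1a5 (4.70 and 2.30%) it was lower. The difference in spread was not tested with 3 libraries per group.

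Aged replicate 2 was the lowest of the 6 libraries for Slc15a1, Slc6a19, Slc7a7, Slc7a8, Slc3a1 and Slc3a2. Other genes of protein digestion were low in the same library. The median of the 13 tested brush border peptidase genes deviated by -0.41 on the log2 scale in aged replicate 2, against 0.20 and 0.27 in aged replicates 1 and 3. The proximal list deviated by -0.38 and the ileal list by -0.30 there, whereas microvillus genes deviated by -0.09, cytosolic peptidases by 0.03 and crypt and dividing cell genes by 0.04. The part of cell composition in the transporter values of that library was not tested. Without aged replicate 2 the median log2 fold change of the 10 transporters was 0.06 and 3 of 10 were below 0; without aged replicate 3 it was -0.16 and 9 of 10 were below 0. Neither fit called a transporter.

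Leaving out both young replicate 2 and aged replicate 3 gave a median of -0.18 with 9 of 10 below 0, still with 0 called. The nearest were Slc6a20a (log2 fold change -0.87, edgeR adjusted p = 0.0566) and Slc7a7 (-0.29, adjusted p = 0.0589), while 1181 genes (7.89%) were called in that fit of 2 against 2 libraries. The libraries left out were those nearest the other age on the first principal component, so the choice itself sets the ages further apart.

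**Figure D5:**
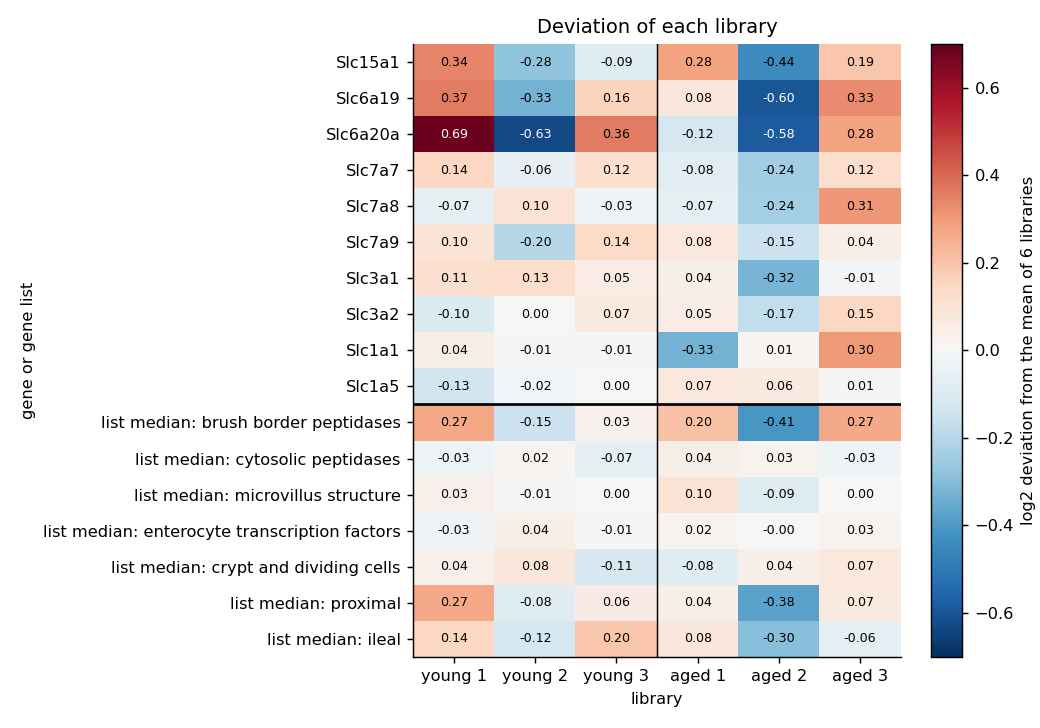
Cells give the log2 deviation of each library from the mean of all 6, for the 10 transporters above the line and for the medians of 7 gene lists below it. Aged replicate 2 holds the lowest values for Slc15a1 (-0.44) and Slc6a19 (-0.60) and for the brush border peptidases (-0.41), and young replicate 2 the lowest for Slc6a20a (-0.63).

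RefSeq promoter windows (GRCm38.p6) were found for 9 of the 10 genes, all but Slc1a5, and are shown for the brush border heterodimer, for the 3 carriers that differed most between mice and for Slc7a7, which shared their high and low libraries (1 of its 5 windows). Each sequence runs 5′ to 3′ on the strand of the gene, from 250 bases before the RefSeq start up to that start or to the first annotated exon, which leaves no such stretch for Slc3a2. The search itself covered the full 250 bases of every window. Capitals mark the motifs, which were searched on both strands. The letters AGATAA stood for the factors of the GATA family. A first form for CDX factors was TTTATG. Their second form was spelled TTTATT. Further motifs were CAAAGTCCA for HNF4, GTTAATNAT for HNF1 and TGATGCAA for ATF4.
Slc3a1 (chr17:85028097-85028346, + strand): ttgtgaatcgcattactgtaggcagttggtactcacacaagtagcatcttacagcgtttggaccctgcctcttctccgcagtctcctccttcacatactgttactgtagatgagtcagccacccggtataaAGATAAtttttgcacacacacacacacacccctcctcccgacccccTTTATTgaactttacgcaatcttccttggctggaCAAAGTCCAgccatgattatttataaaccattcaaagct
Slc7a9 (chr7:35448842-35449036, + strand): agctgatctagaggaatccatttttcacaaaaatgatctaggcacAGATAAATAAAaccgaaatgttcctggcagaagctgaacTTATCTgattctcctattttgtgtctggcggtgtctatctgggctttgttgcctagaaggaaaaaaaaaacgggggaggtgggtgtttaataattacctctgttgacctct
Slc7a7 (chr14:54417781-54417952, - strand): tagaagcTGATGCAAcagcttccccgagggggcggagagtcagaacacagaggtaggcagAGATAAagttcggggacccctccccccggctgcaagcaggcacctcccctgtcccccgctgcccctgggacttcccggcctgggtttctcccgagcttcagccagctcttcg
Slc15a1 (chr14:121505255-121505504, - strand): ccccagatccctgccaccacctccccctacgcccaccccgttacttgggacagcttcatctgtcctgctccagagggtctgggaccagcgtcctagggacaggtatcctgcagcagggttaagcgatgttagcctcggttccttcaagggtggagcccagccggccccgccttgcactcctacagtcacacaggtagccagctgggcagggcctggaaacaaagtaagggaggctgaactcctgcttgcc
Slc6a19 (chr13:73692637-73692886, - strand): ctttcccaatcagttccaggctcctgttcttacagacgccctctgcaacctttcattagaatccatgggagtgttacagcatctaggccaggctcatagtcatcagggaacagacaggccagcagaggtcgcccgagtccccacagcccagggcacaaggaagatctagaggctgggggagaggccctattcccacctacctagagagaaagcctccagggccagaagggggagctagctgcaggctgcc
Slc6a20a (chr9:123678886-123679082, - strand): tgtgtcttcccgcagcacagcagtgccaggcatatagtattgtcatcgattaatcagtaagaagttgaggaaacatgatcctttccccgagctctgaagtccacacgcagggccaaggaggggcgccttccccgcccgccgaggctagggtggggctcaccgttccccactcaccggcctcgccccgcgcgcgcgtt

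The HNF4 letters occurred in 1 of the 14 windows of these genes, that of Slc3a1, and in 0.384% of all 32851 windows, each of 250 bases. The Slc3a1 window also held the GATA letters and the second CDX form. The GATA letters were present in 4 of 14 windows (Slc3a1, Slc7a9 and 2 of the 5 of Slc7a7) and in 9.99% of all. Those 2 windows of Slc7a7 overlap and share the same match, so the letters occurred in 3 of 9 genes. The second CDX form was present in 3 of 14 windows (Slc3a1, Slc7a8 and Slc7a9) and in 18.1% of all. In Slc7a9 a GATA match and a match of the second CDX form overlapped by 1 base. The ATF4 letters were found in 1 window, of Slc7a7, and in 0.791% of all, and neither the first CDX form (10.8% of all) nor the HNF1 letters (0.737%) occurred in any of the 14. The windows of Slc15a1, Slc6a19 and Slc6a20a held none of these letters. The windows of Slc6a19, Slc7a9 and Slc3a2 lie inside the annotated genes. The sequence before the outermost annotated start of these genes was therefore not searched. Matches of letters describe the sequence only and show no binding.

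The genes around the transporters were taken from 8 lists with 141 tested genes besides the 10. edgeR called 0 of them at an adjusted p below 0.05, limma-voom called 0 and DESeq2 6. Over all genes tested, DESeq2 called 3.23% and limma-voom 1.20%. At an unadjusted p below 0.05 there were 22 (15.6%), beside 9.23% of all genes tested.

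Among 23 tested genes of other plasma membrane carriers, 11 had log2 fold changes above and 12 below 0, with a median of -0.12 (-0.20 without young replicate 1 and -0.0063 without young replicate 2). In this list 9 of 23 genes had an unadjusted edgeR p below 0.05, beside 9.23% of all genes tested. The groups did not overlap in 3 genes higher and 5 lower in aged mice, beside 6.30% and 7.49% of all genes tested. The most abundant were Slc38a2 (SNAT2), at 335 ± 59.3 CPM in the young and 371 ± 30.03 CPM in the aged libraries, the taurine carrier gene Slc6a6 (269 ± 4.06 and 271 ± 28.8 CPM), Slc7a1 (CAT1, a carrier of basic amino acids; 225 ± 24.2 and 271 ± 21.6 CPM) and Slc38a1 (SNAT1; 149 ± 27.2 and 118 ± 10.01 CPM). Their edgeR adjusted p-values were 0.830, 0.986, 0.342 and 0.392. Groups did not overlap for Slc7a1, higher in aged mice, and Slc38a1, lower in aged mice. Slc36a4, an amino acid carrier gene named here after its values were seen, stood at 3.57 ± 0.473 and 2.14 ± 0.245 CPM (edgeR adjusted p = 0.132, DESeq2 adjusted p = 0.0233).

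The 12 genes of partners and of the sodium and proton gradients had a median of -0.14, with 8 below 0. Slc9a3, the sodium-proton exchanger NHE3 that sustains peptide uptake, was named after its values were seen and stood at 53.4 ± 8.07 and 58.2 ± 10.9 CPM (edgeR adjusted p = 0.891).

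Of 13 tested brush border peptidase genes, 8 were above 0 (median 0.10). This median turned to -0.06 when young replicate 2 was left out and to -0.0028 for aged replicate 1, and reached 0.27 for young replicate 1 and 0.23 for aged replicate 2. It was 0.03 when young replicate 3 was left out and 0.04 for aged replicate 3. Anpep, aminopeptidase N, stood at 962 ± 133 and 1092 ± 292 CPM and Enpep, aminopeptidase A, at 162 ± 26.8 and 204 ± 47.1 CPM (edgeR adjusted p = 0.879 and 0.668). The 18 genes listed as cytosolic peptidases, not all of which act in the cytosol, had a median of 0.02 with 13 above 0. Rnpep and Lta4h were the most abundant of them.

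In the list of epithelial amino acid metabolism 23 genes were tested, 10 above and 13 below 0 (median -0.03). Of these, 5 had an unadjusted edgeR p below 0.05, beside 9.23% of all genes tested. The groups did not overlap in 2 genes higher and 3 lower in aged mice, beside 6.30% and 7.49% of all genes tested. Oat, ornithine aminotransferase of the citrulline and proline routes, stood at 2344, 1977 and 2125 CPM in the young and 1320, 1378 and 1819.6 CPM in the aged libraries. Each aged value was below each young one, and the log2 fold change was -0.51 ± 0.13 (edgeR adjusted p = 0.122, DESeq2 adjusted p = 0.00688). Got1, the cytosolic aspartate aminotransferase, was named after its values were seen: it held 65.6, 77.3 and 69.9 CPM in the young and 98.9, 101 and 87.5 CPM in the aged libraries. All aged values were higher, with a log2 fold change of 0.43 ± 0.09 (edgeR adjusted p = 0.0555, range over the alternatives 0.00228 to 0.236). Cps1, the first enzyme of citrulline synthesis, was the other abundant member and was not called.

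Of 23 tested targets of the amino acid deprivation response, which ATF4 drives, 17 were above and 6 below 0 (median 0.09). Over all genes tested 51.8% were above 0. In this list 5 genes had an unadjusted edgeR p below 0.05, beside 9.23% of all genes tested. Atf3 and Atf4 were the most abundant. The median of the list turned to -0.01 when young replicate 1 was left out, and was 0.0082 for aged replicate 1 and 0.17 for aged replicate 3. The list contains Slc3a2. The 21 tested genes of amino acid sensing at the lysosome had a median of 0.00 with 12 above 0, and 0 had an unadjusted edgeR p below 0.05. The 14 enterocyte transcription factor genes had a median of 0.03 with 9 above 0. Among them Hnf4a, a nuclear receptor of enterocyte genes, stood at 1598 ± 112 and 1679 ± 98.8 CPM (edgeR adjusted p = 0.891).

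Median log2 fold changes of the cell state lists were 0.01 over 15 microvillus genes, 0.11 over 11 villus tip genes, -0.13 over 9 villus base genes, 0.04 over 12 crypt and dividing cell genes, -0.03 over 7 ileal genes and -0.08 over 9 proximal genes. In these lists 1 gene was called, Gip in the proximal list, which encodes an incretin hormone and fell from 243 ± 9.73 to 176 ± 15.3 CPM (edgeR adjusted p = 0.0285).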

How the data were processed

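The deposited file holds raw counts per gene for 6 libraries, not normalised by the authors, as whole numbers with unequal totals show. Libraries were made with a stranded poly(A) kit, per the labels' protocols. The submitters' processing notes name GRCm38 and, among other tools, STAR, HISAT2 2.1.0, featureCounts 1.6.4 and DESeq2 1.28.1, with no role or order. Annotation release and strand setting: not given in the sources used here.

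Genes were kept by filterByExpr of edgeR 4.0.16 (minimum count 10; 14923 genes), scaled by TMM and fitted with robust quasi-likelihood (age as term, R 4.3.3). P-values were adjusted by Benjamini-Hochberg over all tested genes, and calls were made below 0.05. SE is the size of the log2 fold change over the square root of F. Exon lengths and positions are from GENCODE M21 (1-based). The tests were tried on simulated counts. No pair of libraries of the same age agreed within sampling noise (smallest chi-square per gene 27.2). With 3 mice a group, edgeR p-values set the difference between ages against the spread between these mice, moderated over all tested genes.

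The transporters, lists and tests were chosen with earlier results of these data known. All 10 transporters are named; from each other list up to 4 called genes, or the 2 most abundant, with Cltrn, Epcam, Ptprc and the 4 most abundant other carriers. Some results under this rule, 1 of 4 ratios among them, are not reported here. Of 296 list symbols, 295 were found; Cltrn carries the older symbol Tmem27 in the file. Lists were described by counts and medians with no set test. Alternatives were DESeq2 1.42.0, limma-voom (limma 3.58.1), other scalings and filters, non-robust estimation and leaving out libraries.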

Additional observations from a re-analysis of the deposited data

How the results depend on the processing

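No transporter was called under any of the 15 alternatives. Slc6a20a (-0.87 to -0.045), Slc7a7 (-0.29 to -0.049) and Slc3a1 (-0.26 to -0.088) were below 0 and Slc1a5 (0.058 to 0.12) above 0 in all 15. The other 6 changed sign in 2 to 5 of them. Over the fits without 1 library, log2 fold changes ran from -0.11 to 0.23 for Slc15a1, -0.32 to 0.11 for Slc6a19 (-0.49 without young replicate 2 and aged replicate 3), -0.16 to 0.12 for Slc7a8, -0.13 to 0.035 for Slc7a9, -0.052 to 0.10 for Slc3a2 and -0.16 to 0.16 for Slc1a1, and the log2 ratio of Slc7a8 to Slc3a2 from -0.10 to 0.037. With upper-quartile factors Slc1a1 was at -0.0067 and with limma-voom at -0.011. Without young replicate 2 and aged replicate 3 together, Slc15a1 was at -0.19, Slc7a8 at -0.11, Slc3a2 at -0.048 and Slc1a1 at -0.17. The causes were not tested.

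Counts of calls moved more. Over all genes 210 were called, 413 with no filter, 137 with a filter of 1 CPM in 3 libraries, 482 with DESeq2, 1181 without young replicate 2 and aged replicate 3, and 67 to 270 without 1 library (67 when aged replicate 1 was left out, 72 for aged replicate 2, 109 for young replicate 1 and 111 for young replicate 3). Among the 141 genes of the other lists 0 were called by edgeR, 6 with no filter, 6 with DESeq2, 27 without both libraries, and 0 to 4 without 1 library (1 without young replicate 2 and 4 without aged replicate 3). Fewer genes are tested under the stricter filter; the other causes were not tested. Scaling moved the median of all tested genes by less than 0.1 on the log2 scale. No paired analysis was possible because the labels give no replicate numbers that join young and aged mice. Without 1 library, list medians ran from -0.07 to 0.0047 for amino acid metabolism, -0.019 to 0.026 for sensing and -0.013 to 0.047 for transcription factors. Of the other carriers, 23 of 36 passed the filter and 5 had 0 counts in all 6 libraries.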
